A study of Mus musculus with 4 samples.

Results

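The 32 genes described here encode enzymes and regulators of sterol and fatty acid synthesis, taken by gene name from the 55487 genes of the deposited tables. They comprise 16 sterol enzymes, 6 sterol regulators and 10 enzymes of fatty acid synthesis, desaturation and elongation. All 32 names were found, each under 1 gene ID. RNA was sequenced from cells labelled as regulatory T cells of mouse skin, in 2 libraries without narrow-band ultraviolet B (non-UVB) and 2 with it (UVB), numbered 1 and 2 in each group. Per the series' design text, a psoriasis-like dermatitis was brought on by 60 mg of Aldara cream (5% imiquimod, a Toll-like receptor agonist) spread each day on the shaved back, and UVB mice were irradiated 3 times on alternate days. The text names no group that went without the cream. The non-UVB libraries are called unexposed and the UVB libraries irradiated where values are listed, always with replicate 1 before replicate 2. Mouse strain, sex and age, the sorting of the cells and the number of animals behind a library were not stated in the sources used here. Whether the libraries of a group stem from different mice is likewise unstated, and each p-value therefore reflects library-to-library spread that may be technical.

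Cholesterol is made from acetyl-CoA by way of mevalonate, farnesyl diphosphate, squalene and a series of ring-closed sterols. Fatty acids are made from the same precursor by carboxylation, chain building, desaturation and elongation. Both sets of enzymes are transcribed under the SREBP factors, which the sensor Scap carries out of the endoplasmic reticulum when sterols are scarce and which the Insig proteins retain there when sterols are plentiful. T cells use both pathways when they grow and divide, and in skin keratinocytes and sebocytes are strong producers of lipid.

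Levels are given as TPM, a transcript abundance per gene length that adds up to 1000000 in each library. By an estimate from coverage and FPKM, about 34100000 and 24700000 reads of 100 bp lay behind non-UVB replicates 1 and 2, and 42000000 and 23800000 behind UVB replicates 1 and 2. A gene of 1 kb with 1 read would stand at between 0.0369 and 0.0612 TPM in these libraries, so the lowest values printed below rest on few reads or on parts of reads. The regulatory T cell factor Foxp3 was listed at 0 in non-UVB replicate 1 and stood at 3.49 TPM in UVB replicate 1, whereas both libraries numbered 2 held more of it (19.4 TPM unexposed, 19.3 TPM irradiated). Ikzf2 followed the same split, with 0.0683 and 17.6 TPM in the libraries numbered 1 and 303 and 170 TPM in those numbered 2. Ctla4 was likewise lower in the libraries numbered 1, with 314 and 548 TPM against 1496 and 1473 TPM. Il2ra lay between 134 and 252 TPM. The defining marker Foxp3 was therefore absent or low in the libraries numbered 1. Gamma-delta T cell markers, led by Trdv4 and Trgc1, together reached 8610 TPM (non-UVB) and 8002 TPM (UVB) as replicate 1, but 174 TPM and 244 TPM as replicate 2. For keratinocyte markers the order was opposite, with sums of 372 TPM (non-UVB) and 481 TPM (UVB) as replicate 1 and of 4444 TPM and 4714 TPM as replicate 2. The libraries of a group thus differed from each other in cell type markers, and in bulk RNA fewer cells of a type cannot be told apart from less RNA per cell.

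**Figure D1:**
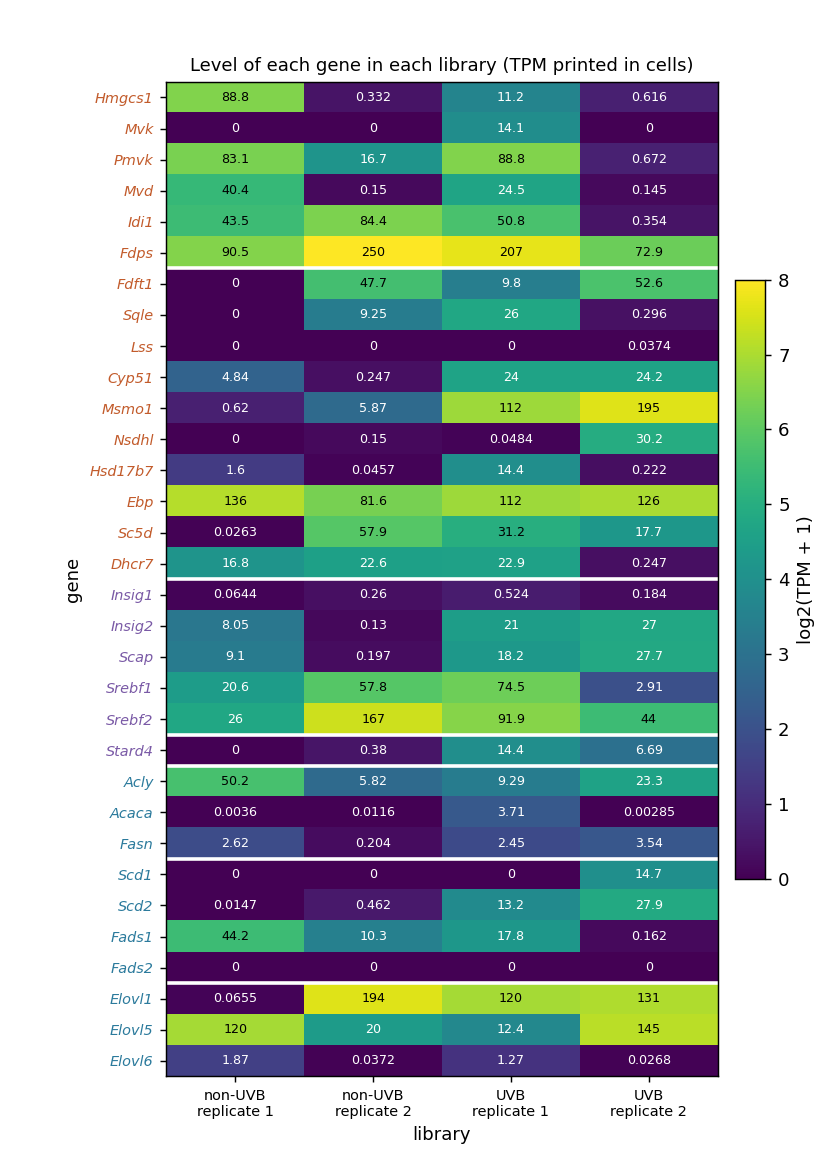
Level of each of the 32 genes (rows, grouped by role) in each of the 4 libraries (columns), coloured by log2(TPM + 1) with the TPM printed in each cell. Ebp and Fdps were above 70 TPM in every library, while most other genes dropped below 1 TPM in at least 1 library.

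Transcripts of these genes together made up 0.0789% and 0.103% of TPM in non-UVB replicates 1 and 2 and 0.115% and 0.0975% in UVB replicates 1 and 2. At 1 TPM or more, 18 and 15 of the 32 genes were detected in the non-UVB libraries, and 27 and 18 in the UVB libraries. Only 6 genes reached 1 TPM in all 4 libraries: Fdps, Ebp, Srebf1, Srebf2, Acly and Elovl5. A further 12 did so in 3 libraries, 7 in 2, 4 in 1 and 3 in none. The test took in every gene that reached 1 TPM in 2 or more libraries, 10286 in all and 25 of the 32. A member seen in 1 group alone could pass this filter only by being high there, so the 25 are not spoken of as all members. Of the 25, 72% and 60% were at 1 TPM or more in non-UVB replicates 1 and 2 and 100% and 64% in UVB replicates 1 and 2, where the shares of all genes tested were 71.1%, 72.2%, 88.2% and 87.3%.

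With UVB, no gene of either branch passed the test. Differences are given on the log2(TPM + 1) scale, which understates the change of low genes, and were tested with limma over all 10286 genes with Benjamini-Hochberg adjustment at a threshold of 0.05. Of all genes tested 0% were called, and none of the 25. At an unadjusted p under 0.05, 9.97% of all genes were higher with UVB and 1.37% lower, against 3 members higher (Msmo1, Stard4 and Scd2) and 0 lower. Stard4 and Scd2 reached 1 TPM in the UVB libraries alone, so they count among the 25 only by being high there. The UVB libraries both exceeded the non-UVB libraries at 6 of the 25, which is 24%, and the same held for 23.2% of all genes tested. Those 6 were Msmo1, Cyp51, Insig2, Scap, Stard4 and Scd2. Macrophage and dendritic cell markers summed to 10477 and 5040 TPM in the unexposed pair and to 18407 and 11526 TPM in the irradiated pair, led by Cd74 and Fcer1g, with 12, 10, 11 and 11 of 12 at 1 TPM or more in non-UVB 1 and 2 and UVB 1 and 2. Their mean was higher with UVB for 11 of 12, as at the 6 genes, and their part in those differences was not tested. Both UVB libraries lay below both non-UVB libraries at none of the 25, against 9.71% of all genes. The counts of members therefore lay near the background on the higher side. After median scaling 5 of the 32 lay below without overlap (Idi1, Lss, Ebp, Fads1 and Fads2, of which Fads2 was listed at 0 throughout). After quantile normalization 2 did (Insig1 and Fads1), and the same 6 lay above in both cases. Lack of overlap was not counted over all genes under these scalings, so these member counts have no background share beside them.

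**Figure D2:**
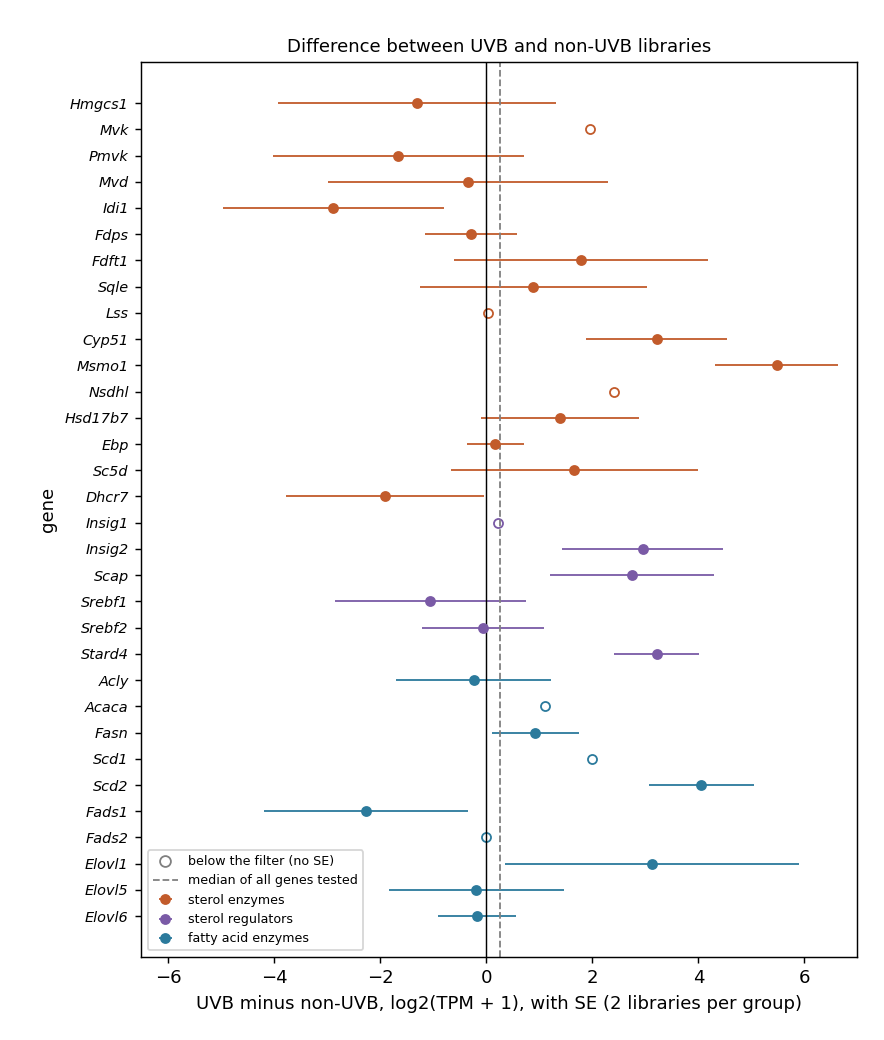
Difference between UVB and non-UVB libraries for each gene on the log2(TPM + 1) scale, with the SE from limma (2 libraries per group); open points are genes below the filter, and the dashed line is the median of all genes tested, 0.26. Msmo1 lay farthest to the right at 5.48 and Idi1 farthest to the left at -2.88, and most SE bars cross the line at 0.

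The early sterol enzymes carry acetyl-CoA units to farnesyl diphosphate, the branch point to sterols and to the isoprenoids of protein prenylation. Hmgcs1, which forms the mevalonate precursor, stood at 88.8 and 0.332 TPM in the unexposed pair and at 11.2 and 0.616 TPM in the irradiated pair. Mvd, the decarboxylase of the arm, had 40.4 and 0.15 TPM unexposed against 24.5 and 0.145 TPM irradiated. Pmvk, which adds the second phosphate to mevalonate, had 83.1 and 16.7 TPM unexposed against 88.8 and 0.672 TPM irradiated. At all of these genes both libraries numbered 1 were above both numbered 2, and the non-UVB and UVB values overlapped. Their UVB differences were -1.30 ± 2.62 (SE, n = 2 per group) for Hmgcs1, -0.35 ± 2.64 for Mvd and -1.66 ± 2.36 for Pmvk, each with a limma adjusted p of 1. Mvk, the mevalonate kinase, was listed at 0 in 3 libraries and stood at 14.1 TPM in UVB replicate 1, so it was not tested.

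Idi1, which isomerizes isopentenyl diphosphate, had 43.5 and 84.4 TPM in the unexposed pair and 50.8 and 0.354 TPM in the irradiated pair. Only UVB replicate 2 was low, and the difference of -2.88 ± 2.08 did not pass (limma adjusted p = 0.92). Fdps, the farnesyl diphosphate synthase (chromosome 3, 89093588 to 89101959, GRCm38), was the most abundant of the 32 genes in non-UVB replicate 2 and UVB replicate 1. It had 90.5 and 250.2 TPM in the unexposed pair and 207 and 72.9 TPM in the irradiated pair, a difference of -0.29 ± 0.87 with overlapping groups. The 6 genes of this arm summed to 346 and 352 TPM in the unexposed pair and to 397 and 74.6 TPM in the irradiated pair. In UVB replicate 2, 1 of the 6 reached 1 TPM, Fdps, which held 97.6% of the sum. That library had the fewest reads of the 4, about 23800000. Non-UVB replicate 2, with the sum of 352 TPM, had about 24700000. The part of depth in the low sum of UVB replicate 2 was not tested.

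The late sterol enzymes turn farnesyl diphosphate into squalene, close the rings and trim the product to cholesterol. Msmo1, the sterol methyl oxidase that removes methyl groups from the ring system (chromosome 8, 64718139 to 64733792), had 0.62 and 5.87 TPM in the unexposed pair and 112 and 195 TPM in the irradiated pair. Both UVB libraries were well above both non-UVB libraries. The difference was 5.48 ± 1.16, at 6.12 between the libraries numbered 1 and 4.83 between those numbered 2, with an unadjusted p of 0.0096 and a limma adjusted p of 0.223. Cyp51, the lanosterol demethylase that acts upstream of it (chromosome 5, 4081145 to 4104746), had 4.84 and 0.247 TPM in the unexposed pair and 24.0 and 24.2 TPM in the irradiated pair. Its groups did not overlap either, and the difference was 3.21 ± 1.33 (limma adjusted p = 0.562). Cyp51 overlaps Akap9 on the opposite strand, and whether the counting used strand was not stated. Akap9 had 0.0355 and 10.4 TPM in the unexposed pair and 1.64 and 47.8 TPM in the irradiated pair.

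The sequence before the transcription start was looked at for the members that RefSeq's table for GRCm38.p6 holds, 25 of 32. Shown are the 250 bases before the start of Msmo1 (chr8:64733579-64733828, minus strand) and Cyp51 (chr5:4104698-4104947, minus strand), the sterol enzymes whose groups did not overlap, of Hmgcs1 (chr13:119690101-119690350, plus strand), and of the elongase Elovl6 (chr3:129532136-129532385, plus strand) as a fatty acid gene for contrast. Each is written along the gene's strand, with CCAAT or its reverse complement ATTGG in capitals, and in Hmgcs1 also the sterol regulatory element letters TCACCCCAC.
Msmo1: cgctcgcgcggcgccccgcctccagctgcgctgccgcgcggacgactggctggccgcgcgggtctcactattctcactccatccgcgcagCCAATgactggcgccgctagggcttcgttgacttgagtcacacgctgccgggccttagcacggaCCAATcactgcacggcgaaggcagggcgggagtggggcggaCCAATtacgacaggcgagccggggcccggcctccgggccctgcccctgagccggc
Cyp51: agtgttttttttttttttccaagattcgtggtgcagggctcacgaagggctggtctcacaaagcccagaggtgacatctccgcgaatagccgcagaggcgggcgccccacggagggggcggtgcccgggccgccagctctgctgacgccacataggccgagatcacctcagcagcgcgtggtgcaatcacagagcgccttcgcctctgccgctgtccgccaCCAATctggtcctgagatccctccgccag
Hmgcs1: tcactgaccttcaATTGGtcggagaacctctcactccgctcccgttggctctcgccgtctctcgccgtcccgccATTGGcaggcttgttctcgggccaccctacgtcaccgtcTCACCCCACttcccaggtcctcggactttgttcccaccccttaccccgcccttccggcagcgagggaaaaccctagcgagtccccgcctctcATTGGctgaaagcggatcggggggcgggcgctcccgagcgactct
Elovl6: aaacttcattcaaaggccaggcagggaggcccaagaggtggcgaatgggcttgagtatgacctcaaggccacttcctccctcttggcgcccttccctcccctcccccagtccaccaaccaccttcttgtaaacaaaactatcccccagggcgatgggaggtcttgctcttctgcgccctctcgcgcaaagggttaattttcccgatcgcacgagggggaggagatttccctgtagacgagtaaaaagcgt
Msmo1 holds CCAAT at 3 places and Cyp51 at 1, Hmgcs1 holds it at 3 places on the other strand, and Elovl6 holds none. The deposited data place the beginning of Msmo1 at 64733792 and of Cyp51 at 4104746, both within the windows shown. Most of the Msmo1 window and all marked matches of both genes therefore lie inside the gene as deposited. Bases before the Msmo1 window were not searched.

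CCAAT is the letters bound by NF-Y, a factor known to act beside the SREBP factors at sterol genes. On either strand it was found before at least 1 start of all 13 sterol enzyme genes in the table, of 4 of 5 regulators (not Scap) and of 3 of 7 fatty acid genes (Fasn, Elovl1 and Elovl5). The same search found it in 37.5% of the 27025 genes of the table and in 41.0% of the 6243 tested genes that it holds. Among the sterol enzymes there were 28 matches over all starts, 20 of them on the other strand, between 7 and 232 bases before the start. All matches of Msmo1, Cyp51, Idi1 and Dhcr7 lie inside the gene as deposited, not before its beginning. How often this holds among all genes was not counted. The letters TCACNCCAC, searched on both strands, were found in 1 of the 25 (Hmgcs1), in 1.22% of all genes and in 1.12% of tested genes. GGGCGG, the letters of a GC box, was found in 12 of 13 sterol enzyme genes, all 5 regulators and 3 of 7 fatty acid genes, against 35.4% of all and 64.2% of tested genes. These matches describe letters in a window, and no difference between genes that hold a motif and genes that do not was tested. The only Acaca window (chromosome 11, 84195188 to 84195437, plus strand) lies inside that gene, which begins at 84129672. The bases before that beginning were not searched, so the lack of matches for Acaca covers the inner start alone.

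**Figure D3:**
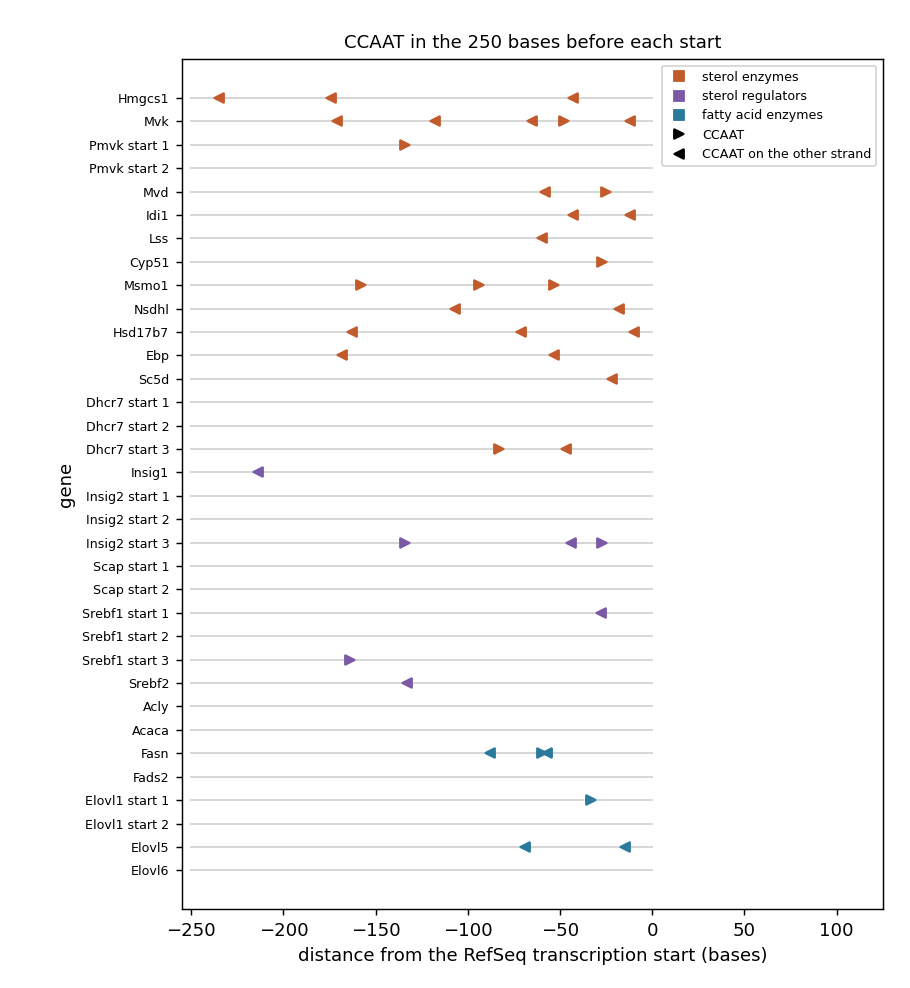
Positions of CCAAT (triangle to the right) and of its reverse complement (triangle to the left) in the 250 bases before each RefSeq start, in bases from the start, for the 25 genes in the table, with 1 line per start. All 13 sterol enzyme genes carry at least 1 match, while 4 of 7 fatty acid genes (Acly, Acaca, Fads2 and Elovl6) carry none. The matches of Msmo1, Cyp51, Idi1 and Dhcr7 lie inside the gene as deposited. The Acaca start shown lies inside the gene, and the bases before the gene's beginning were not searched.

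Ebp, the sterol isomerase (chromosome X, 8185329 to 8193512), had 136 and 81.6 TPM in the unexposed pair and 112 and 126 TPM in the irradiated pair. Its groups overlapped and its difference was 0.17 ± 0.54, the lowest SE among the members tested. The difference was -0.43 after median scaling. The other 9 late enzymes were each below 1 TPM in at least 1 library. Fdft1, the squalene synthase, was listed at 0 in non-UVB replicate 1 and had 47.7 TPM in non-UVB replicate 2, against 9.80 and 52.6 TPM with UVB. It overlaps the abundant protease gene Ctsb on the opposite strand, which had 505 and 275 TPM unexposed against 644 and 198 TPM irradiated. Sqle, the squalene epoxidase, was at 0 and 9.25 TPM unexposed against 26.0 and 0.296 TPM irradiated, and Sc5d, the sterol desaturase, at 0.0263 and 57.9 TPM unexposed against 31.2 and 17.7 TPM irradiated. Non-UVB replicate 1 was lowest at all of these genes, Sqle was also low in UVB replicate 2, and the groups overlapped.

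Dhcr7, a reductase late in the pathway, had 16.8 and 22.6 TPM in the unexposed pair and 22.9 and 0.247 TPM in the irradiated pair. Hsd17b7, a sterol ketoreductase, had 1.60 and 0.0457 TPM unexposed against 14.4 and 0.222 TPM irradiated. Both genes were below 1 TPM in UVB replicate 2, Hsd17b7 also in non-UVB replicate 2, and the groups overlapped. Their differences were -1.91 ± 1.86 and 1.40 ± 1.49 (limma adjusted p = 0.992 and 1). Nsdhl, a sterol dehydrogenase, was at 30.2 TPM in UVB replicate 2 and at or below 0.15 TPM elsewhere. Lss, which closes the rings of oxidosqualene, was at 0.0374 TPM in UVB replicate 2 and listed at 0 in the other 3 libraries. Lss was thus near or at 0 in every library while enzymes before and after it were detected.

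The 10 late enzymes summed to 160 and 225 TPM in the unexposed pair and to 352 and 447 TPM in the irradiated pair, so the groups did not overlap. Without Msmo1 the sums were 160 and 219 TPM unexposed against 241 and 252 TPM irradiated, a narrower gap in the same direction. These sums still hold Cyp51, with 4.84 and 0.247 TPM unexposed against 24.0 and 24.2 TPM irradiated. The narrower gap thus rests on a gene already picked out for not overlapping. With Cyp51 also taken out, the sum of UVB replicate 1 falls below that of non-UVB replicate 2, so the groups overlap. The early arm showed no gap with all its genes counted, as its sum was lowest in UVB replicate 2. No test was made of these sums, because the genes were chosen with results of these data known.

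Of the regulators, Insig2, which retains Scap in the endoplasmic reticulum (chromosome 1, 121304353 to 121332589), had 8.05 and 0.13 TPM in the unexposed pair and 21.0 and 27.0 TPM in the irradiated pair. Scap itself (chromosome 9, 110333288 to 110384950) had 9.10 and 0.197 TPM unexposed against 18.2 and 27.7 TPM irradiated. Both UVB libraries exceeded both non-UVB libraries at each of the pair, and non-UVB replicate 2 was lowest. The differences of 2.96 ± 1.52 for Insig2 and 2.76 ± 1.55 for Scap did not pass (limma adjusted p = 0.716 and 0.791). They were smaller between the libraries numbered 1, at 1.28 and 0.93, than between those numbered 2, at 4.63 and 4.58. Insig1, the other retention protein and a classical SREBP target, lay between 0.0644 and 0.524 TPM in all 4 libraries and was not tested.

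Srebf2, the factor that acts chiefly on sterol genes, had 26.0 and 167 TPM in the unexposed pair and 91.9 and 44.0 TPM in the irradiated pair. Srebf1, the factor that acts chiefly on fatty acid genes, had 20.6 and 57.8 TPM unexposed against 74.5 and 2.91 TPM irradiated. Both factors were highest in non-UVB replicate 2 or UVB replicate 1, and their groups overlapped. The differences were -0.06 ± 1.15 for Srebf2 and -1.05 ± 1.80 for Srebf1, each with a limma adjusted p of 1. Stard4, a soluble carrier of cholesterol (chromosome 18, 33199355 to 33213862), was listed at 0 and stood at 0.38 TPM without UVB, and had 14.4 and 6.69 TPM with UVB. Its groups did not overlap, and the difference was 3.21 ± 0.81, at 3.94 between the libraries numbered 1 and 2.48 between those numbered 2 (unadjusted p = 0.0171, limma adjusted p = 0.239). Stard4 entered the test only by being high with UVB.

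In the fatty acid branch, Fasn and Acaca were low and Acly was variable. Acly, which makes cytosolic acetyl-CoA from citrate, had 50.2 and 5.82 TPM in the unexposed pair and 9.29 and 23.3 TPM in the irradiated pair. Fasn, the fatty acid synthase, had 2.62 and 0.204 TPM unexposed against 2.45 and 3.54 TPM irradiated. Acaca, the carboxylase that commits acetyl-CoA to the pathway, stood at 3.71 TPM in UVB replicate 1 and at or below 0.0116 TPM in the other 3 libraries. Groups overlapped at all of them, and the differences were -0.24 ± 1.46 for Acly and 0.92 ± 0.82 for Fasn (limma adjusted p = 1 and 0.974). The difference of Fasn was -0.38 after quantile normalization.

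Of the desaturases, Scd2 (chromosome 19, 44293674 to 44306864), which puts the first double bond into saturated acyl chains, had 0.0147 and 0.462 TPM in the unexposed pair and 13.2 and 27.9 TPM in the irradiated pair. Both UVB libraries were above both non-UVB libraries, by 3.81 between the libraries numbered 1 and 4.30 between those numbered 2. The difference was 4.06 ± 0.99 (unadjusted p = 0.0154, limma adjusted p = 0.227). Scd2 entered the test only by being high with UVB. Its neighbour and close relative Scd1 was listed at 0 in 3 libraries and had 14.7 TPM in UVB replicate 2. Genes of this family share similar sequence, and how the counting divided reads between them was not stated, so Scd1 and Scd2 are uncertain against each other. Fads1, which desaturates polyunsaturated chains, had 44.2 and 10.3 TPM in the unexposed pair and 17.8 and 0.162 TPM in the irradiated pair, a difference of -2.27 ± 1.92 (limma adjusted p = 0.961). Its partner Fads2 was listed at 0 in all 4 libraries.

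The elongases held most of the fatty acid transcripts. Elovl1, which extends saturated chains to very long ones, had 0.0655 and 194 TPM in the unexposed pair and 120 and 131 TPM in the irradiated pair. Only non-UVB replicate 1 was low, and the difference was 3.13 ± 2.77 (limma adjusted p = 0.974). Elovl1 overlaps the mitotic gene Cdc20 on the opposite strand, which had 104 and 0.366 TPM unexposed against 46.5 and 30.7 TPM irradiated. Elovl5, which extends polyunsaturated chains, had 120 and 20.01 TPM unexposed against 12.4 and 145 TPM irradiated, a difference of -0.19 ± 1.65. Elovl6, which extends palmitate to stearate, had 1.87 and 0.0372 TPM unexposed against 1.27 and 0.0268 TPM irradiated. At both genes the groups overlapped, and Elovl6 was above 1 TPM only in the libraries numbered 1.

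Set side by side, the branches had similar medians. Over all listed genes, tested or not, the median UVB difference was 0.53 log2 for the 16 sterol enzymes and 0.46 for the 10 fatty acid genes, so the former exceeded the latter by 0.07. The median of all genes tested was 0.26. Quantile normalization moved that median to -0.18, and median scaling moved it to -0.35. Relative to all genes tested, a filtered set unlike the listed genes, the medians were 0.27 and 0.20. With no filter on low values they were 0.49 and 0.43. Relative to genes tested they were -0.62 for the sterol enzymes without UVB replicate 1 and -0.19 for the fatty acid genes without non-UVB replicate 2. The sterol median was -0.22 without UVB replicate 1, and leaving out non-UVB replicate 2 or 1 gave a fatty acid median of 0.06 or 1.09. The order of the branches turned without non-UVB replicate 1 (-0.80) or UVB replicate 1 (-0.97). Of the sterol enzymes 10 had a higher and 6 a lower mean with UVB, and 5 were higher and 1 was lower within both replicate numbers. Of the fatty acid genes 5 had a higher and 4 a lower mean, and 1 was higher and 2 were lower within both numbers. Among all genes tested, 61.0% had a higher mean, 34.0% were higher and 17.7% lower within both numbers.

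Summed over the branch, sterol enzymes had 506 and 577 TPM in the unexposed pair and 749 and 521 TPM in the irradiated pair. Fatty acid genes had 219 and 231 TPM unexposed against 180 and 345 TPM irradiated. The ratio of the sums was 2.32 and 2.50 without UVB and 4.16 and 1.51 with UVB. Both UVB ratios lay outside the range of the non-UVB ratios, on opposite sides of it, so the balance of the branches did not differ in 1 direction. The highest fatty acid gene was Elovl5 in non-UVB replicate 1 and UVB replicate 2 and Elovl1 in the other two. The 8 fatty acid genes without Elovl1 and Elovl5 summed to 98.9 and 16.8 TPM unexposed against 47.8 and 69.6 TPM irradiated. The regulators, including Stard4, had a median difference of 1.49, or 1.22 relative to all genes tested and 1.45 with no filter on low values. The 1.49 became 2.28 and 0.51 at pseudocounts of 0.1 and 10 TPM and 0.88 after median scaling. At 3 of the 5 regulators tested the groups did not overlap, against 23.2% of all genes tested, and 5 genes are too few to read that share.

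**Figure D4:**
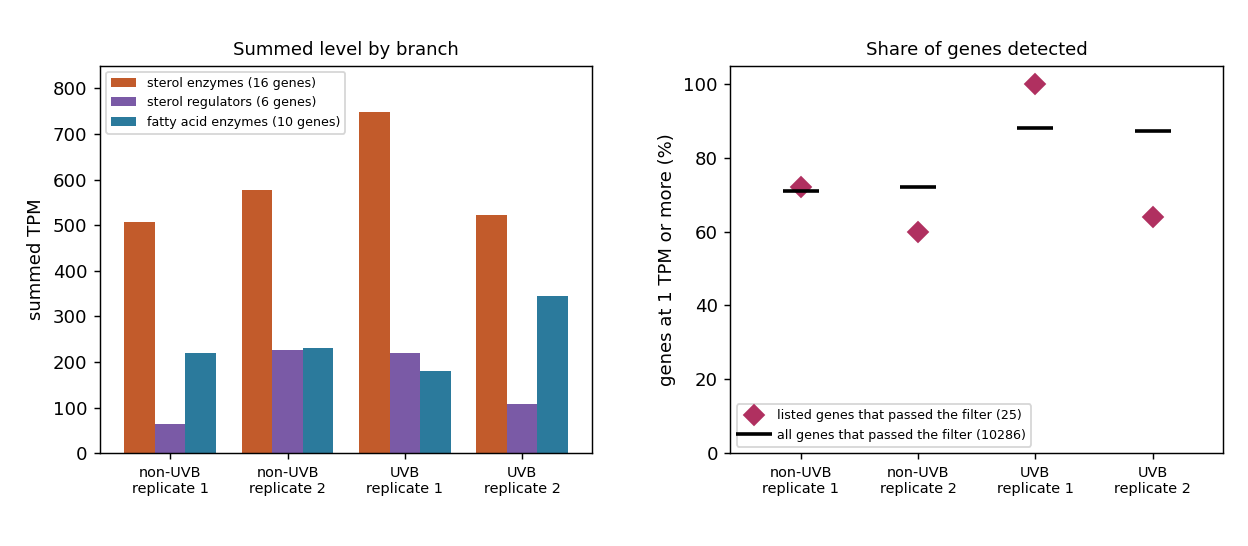
Left, summed TPM of the sterol enzymes, sterol regulators and fatty acid enzymes in each library; right, the share of genes at 1 TPM or more in each library for the 25 listed genes tested (diamonds) and all 10286 genes tested (horizontal lines). The sterol sum was highest in UVB replicate 1 and the fatty acid sum in UVB replicate 2, where the diamond lies at 64% against 87.3%.

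Other genes of these pathways were taken from lists that are no part of the 32, and none passed the test in either direction (limma adjusted p). Of 4 other sterol enzymes, 2 had a higher and 2 a lower mean with UVB. Lbr, a nuclear envelope protein with sterol reductase activity, had 50.7 and 24.3 TPM in the unexposed pair and 113 and 75.2 TPM in the irradiated pair, a difference of 1.36 ± 0.71 without overlap (adjusted p = 0.734). Of 9 genes of the isoprenoid branches, 6 were higher and 3 lower. Dhdds, which builds dolichol, was listed at 0 and stood at 0.0675 TPM without UVB and had 12.1 and 23.0 TPM with UVB, a difference of 4.10 ± 0.87 (limma adjusted p = 0.223). Dhdds thus entered the test only by being high with UVB. Fnta, a subunit of protein prenyltransferases, had 0.0435 and 87.5 TPM unexposed against 65.4 and 41.8 TPM irradiated, with overlap.

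Genes that cleave the SREBP factors or degrade sterol-regulated proteins had a lower mean for 6 of 8 members and a median of -0.51. Mbtps2, the intramembrane protease that releases the SREBP factors, had 9.73 and 8.49 TPM without UVB, was listed at 0 in UVB replicate 1 and stood at 0.0206 TPM in UVB replicate 2. Both UVB libraries were below both non-UVB libraries, and the difference of -3.32 ± 0.64 did not pass (limma adjusted p = 0.223). Mbtps2 entered the test only by being high without UVB.

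Of 22 other fatty acid genes, 10 had a higher and 4 a lower mean, and 8 were listed at 0 in all libraries. Tecr, the reductase that ends each elongation cycle, was the most abundant, with 231 and 444 TPM in the unexposed pair and 320.1 and 410 TPM in the irradiated pair. Mid1ip1, an activator of acetyl-CoA carboxylase, had 67.1 and 78.7 TPM without UVB, was listed at 0 in UVB replicate 1 and had 8.39 TPM in UVB replicate 2, a difference of -4.59 ± 1.51 (limma adjusted p = 0.386). Of 12 genes of oxysterol sensing, storage and efflux, 9 were higher and 3 lower. Npc2, a lysosomal cholesterol carrier, had 74.8 and 108.1 TPM unexposed against 173 and 108.4 TPM irradiated, and Nr1h2, an oxysterol receptor, had 8.05 and 57.6 TPM unexposed against 65.8 and 57.4 TPM irradiated.

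The lists of other cell types gave further values, none tested for a part in the differences above. Keratinocyte markers, led by Krt14 and Krt17, had 8 and 10 of 12 at 1 TPM or more without UVB and 9 and 12 with UVB. Of 8 sebocyte markers, Krt79 led the list, and Scd3, Awat2, Cidea and Far2 were listed at 0 in all libraries. Elovl3, another of them, was at 41.3 TPM in UVB replicate 2 and at 0 elsewhere, which is also where Scd1 was detected, and its part there was not tested. Of 7 adipocyte markers, 6 were at 0 in every library and Plin1 stood at 6.11 TPM in non-UVB replicate 2. Of 7 endothelial and fibroblast markers, Cdh5, Col1a1, Col3a1 and Dcn were at 0 throughout, and Pecam1 and Lum led the list. Of 7 regulatory T cell markers, 5 and 7 were at 1 TPM or more in the non-UVB libraries and 7 and 7 in the UVB libraries, with sums of 1506 and 4232 TPM unexposed against 1585 and 3400.4 TPM irradiated.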

How the data were processed

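Per the labels' protocols, a SMARTer kit for very small inputs turned total RNA into libraries, which gave unpaired reads 100 bp long. Per the submitters' processing notes, the tools were HISAT2, StringTie and DESeq2 and the build was GRCm38, also called mm10; the sources used here do not give versions, roles or the gene annotation. Per the file headers, the authors deposited 1 table per library with coverage (mean read depth per base, not scaled to depth), FPKM and TPM for each gene. The deposited FPKM values correct for gene length and depth, and the deposited TPM values add up to 1000000 per library.

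Summing the entries that share a gene ID left 55487 genes. Reads behind a library were estimated from its highest ratio of coverage to FPKM. No count test was run, since the tables hold no counts. The 10286 genes that reached 1 TPM in 2 or more libraries entered limma 3.58.1 (R 4.3.3) as log2(TPM + 1), in a model of group alone with an intensity trend that had been tested on simulated data. Medians of a branch run over all its listed genes. The 32 genes and the other lists were chosen with earlier results of these data known, so no list was tested. The rule named all 32, the most abundant gene and the one with the smallest p of each other pathway list, the 2 most abundant of each list of other cell types, and Foxp3, Ikzf2, Il2ra and Ctla4; 1 gene that the rule names is not reported here. Of 115 entries in the other lists, 114 were found. Promoters are the 250 bases before each start in RefSeq's GRCm38.p6 table, searched for 3 motifs on both strands. Akap9, Ctsb and Cdc20 were named as overlapping genes after their values were seen. The alternatives tried other pseudocounts, filters, units, scalings and a spread without trend, a replicate block, and fits lacking 1 library.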

Additional observations from a re-analysis of the deposited data

How the results depend on the processing

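Under each of the 14 alternatives 0 genes of all tested passed the threshold, so 0 members did. In the 4 that leave out a library, 1 group keeps a single library, and the spread then comes from the opposite group alone. The lowest limma adjusted p of a member ran from 0.155 without an intensity trend to 1 without either UVB library. The median of the sterol enzymes was 0.98 and 0.27 at pseudocounts of 0.1 and 10 TPM, 0.31 after quantile normalization and -0.075 after median scaling, and ran from -0.22 to 0.92 with 1 library left out. The fatty acid median was 0.87 and 0.10 at pseudocounts of 0.1 and 10 TPM, -0.19 after quantile normalization and -0.14 after median scaling, and ran from 0.064 to 1.09 with 1 library left out. Their difference ran from -0.97 to 0.72 with 1 library left out. Median scaling lowers genes at 0 by construction, and otherwise the cause was not tested.

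Of 31 members with a value, 21 changed sign under at least 1 alternative. The other 10 were Msmo1, Cyp51, Stard4, Scd2, Insig2, Scap, Mvk and Scd1, higher with UVB, and Idi1 and Fads1, lower. Mvk and Scd1 did not stay higher throughout. The difference was 0 for Mvk without UVB replicate 1 and 0 for Scd1 without UVB replicate 2, the only library where each was detected. Where groups do not overlap, leaving out 1 library cannot turn the sign. Median scaling gave -0.58 for Lss, -0.43 for Ebp and -0.39 for Insig1, and quantile normalization -0.44 for Insig1 and -0.38 for Fasn. With 1 library left out, log2 differences ran as follows: Hmgcs1 -4.34 to 1.74, Pmvk -4.53 to 1.22, Mvd -2.94 to 2.23, Fdps -1.04 to 0.46, Fdft1 -1.02 to 4.59, Sqle -1.31 to 3.08, Nsdhl -0.033 to 4.86, Hsd17b7 -0.43 to 3.23, Ebp -0.19 to 0.54, Sc5d -1.26 to 4.58, Dhcr7 -4.04 to 0.22, Srebf1 -3.19 to 1.08, Srebf2 -1.38 to 1.26, Acly -1.69 to 1.22, Acaca -0.0068 to 2.22, Elovl1 -0.63 to 6.89, Elovl5 -1.91 to 1.53, Elovl6 -0.91 to 0.56, Idi1 -5.51 to -0.25, Fads1 -4.28 to -0.26, Fasn 0.13 to 1.72, Insig2 1.45 to 4.46, Scap 1.22 to 4.30, Cyp51 2.10 to 4.33. With the replicate block, 0 members and 0 of 10286 genes passed, the lowest member adjusted p was 0.342, and the medians were as without it (0.53 and 0.46). The numbers are only numbers in the labels: same-numbered libraries deviated together with r = 0.165 across genes. The 2 libraries numbered 2 had the fewest reads, and the part of depth in values near 0 there was not tested. Genes listed at 0 numbered 42113 and 39455 in non-UVB replicates 1 and 2, and 39801 and 38135 in UVB replicates 1 and 2.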
